A study of Mus musculus with 78 samples.

Results

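Cdx2-high and Cdx2-low blastomeres of the mouse 8-cell embryo were compared, a blastomere being one of the cells into which the fertilised egg divides. The members were taken from the table of gene levels at the 8-cell stage, which held 26 blastomeres. The 20 blastomeres with at least 5500 genes above 1 FPKM (fragments scaled to transcript length and to the mapped total of each cell) were kept. They were chosen by, and split on, a measured value, the median of their own Cdx2 level. That median was 0, so the 3 blastomeres with Cdx2 above 0 formed the Cdx2-high group and the 17 at 0 formed the Cdx2-low group. The other 6 blastomeres had fewer genes and entered neither group. The whole series comprised 78 labelled samples, each a single cell, of which 50 had a column in the gene tables of the 4-cell and 8-cell stages.

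Both groups shared 1 genotype and 1 treatment. Embryos carried 1 copy of the Brainbow 2.1 lineage construct at Gt(ROSA)26Sor and 1 copy of the CAG-cre/Esr1* transgene, a Cre recombinase that enters the nucleus in the presence of 4-hydroxytamoxifen and is driven by the widely active CAG promoter. They were exposed to 4-hydroxytamoxifen for 2 h at the 2-cell stage, cultured in KSOM medium to the 8-cell stage and dissociated. The labels give 31 blastomeres of this stage from 4 embryos, but the columns of the gene table bear names (S48 to S68, and 5 columns named NA, called NA.1 to NA.5 here) that do not give the embryo or the lineage. Blastomeres were therefore not assigned to embryos, and embryo differences may be mixed into every value below.

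Cdx2 encodes a homeodomain transcription factor that is needed for the trophectoderm, the outer epithelium of the blastocyst that forms the placenta. At about the 8-cell stage the mouse embryo compacts, and its cells acquire an outward-facing apical domain built by the Par complex and ezrin. In cells with such a domain Hippo signalling is held low, Yap1 stays in the nucleus with Tead4, and Cdx2 and Gata3 are transcribed. In inner cells Hippo signalling keeps Yap1 out of the nucleus, and pluripotency factors such as Nanog and Sox2 are kept.

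The Cdx2 values selected the members of each group and are given as a description. Cdx2 lies on chromosome 5 from 147300900 to 147307249 (mm10, RefSeq), where no other gene of that annotation overlaps it, and its exons add up to 2145 bases in a single curated transcript. Its level was 14.98 FPKM in S48, 12.5 FPKM in S60 and 4.70 FPKM in S51. From the steps between low FPKM values these levels were estimated to stand for about 570 fragments in S48, 420 in S60 and 185 in S51. The member just inside the threshold had 4.70 FPKM and those just outside had 0. In the 17 Cdx2-low blastomeres a count of 0 allowed a level of up to 0.0643 to 0.0968 FPKM (3 fragments in each, covering counting error only), so that the Cdx2-low members had no detectable order among themselves. Cdx2 was not among the 15218 genes listed at the 4-cell stage.

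**Figure D1:**
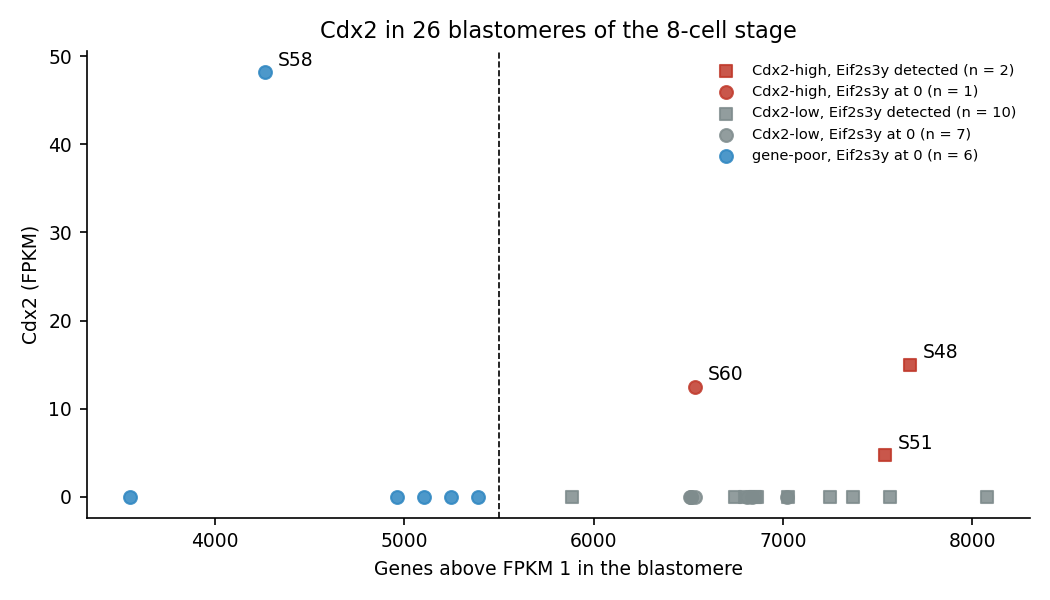
Cdx2 level (FPKM) against the number of genes above 1 FPKM in each of the 26 blastomeres of the 8-cell stage, 1 point each; the dashed line marks the minimum of 5500 genes, and squares mark blastomeres in which the Y-linked gene Eif2s3y was detected. S48, S51 and S60 stand above 0 to the right of the line, and S58 stands at 48.2 FPKM to its left.

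Depth did not separate the groups. The estimated total behind each FPKM value was 15.7 M to 18.3 M fragments (M, mega) in the Cdx2-high blastomeres and lay between 14.4 M and 21.8 M over all 20. S48, S51 and S60 had 7673, 7542 and 6537 genes above 1 FPKM, within the range of 5884 to 8078 among the Cdx2-low blastomeres. S48 and S51 lay above the Cdx2-low median of 6835 genes and S60 below it. Dppa3, an abundant maternal and early embryonic transcript, had 2474 to 3265 FPKM in the Cdx2-high and 2518 to 3693 FPKM in the Cdx2-low blastomeres. The number of annotated repeat copies with any reads was 32577 to 42825 in the Cdx2-high blastomeres and lay within the range of 26447 to 64388 over all 20. The summed level of 7 listed cumulus and granulosa markers, most of it Amhr2, was 27.9, 56.3 and 47.4 FPKM in S48, S51 and S60 against 7.84 to 111 FPKM in the Cdx2-low blastomeres, and the 2 listed sperm genes were at 0 in all 3.

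The 3 Cdx2-high blastomeres came from at least 2 embryos. The Y-linked translation factor gene Eif2s3y was at 139 FPKM in S48, 75.7 FPKM in S51 and 0 in S60. Xist, the RNA that coats the inactive X chromosome in females, was at 0.00288 FPKM in S48, 0.431 FPKM in S51 and 4.61 FPKM in S60. Among the Cdx2-low blastomeres, Eif2s3y was detected in 10, from 31.1 to 153 FPKM, and was at 0 in 7, each of which had Xist at 1.27 FPKM or more. Cdx2 was thus detected in both sexes, and in each sex most blastomeres were listed at 0. Whether a listed 0 means absence was not tested. The mitotic kinase gene Aurkb was also listed at 0 in 3 Cdx2-low blastomeres.

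Correlations between Cdx2-high blastomeres lay within the range of those between Cdx2-high and Cdx2-low ones. Over the 7595 genes compared below, the rank correlation of levels between 2 Cdx2-high blastomeres was 0.820 for S48 with S51, 0.702 for S48 with S60 and 0.724 for S51 with S60. Between a Cdx2-high and a Cdx2-low blastomere the lowest, median and highest values were 0.671, 0.729 and 0.844, and between 2 Cdx2-low blastomeres they were 0.647, 0.716 and 0.844. The nearest blastomeres to S48 were S49 and S50, both Cdx2-low and with Eif2s3y, at 0.844 and 0.829, and the same 2 were nearest to S51 at 0.831 and 0.826. S60 was nearest to the Cdx2-low S63, at 0.747. Sex is mixed into these pairs. The median was 0.751 for pairs with Eif2s3y detected in both, such as S48 with S51. It was 0.701 for pairs with it detected in 1, such as S60 with S48 or S51. Each Cdx2-high pair lay between the median and the highest value of its kind (0.844 and 0.751). These correlations are across genes, which are not independent replicates.

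The levels of all other genes were then compared on a scale of log2(FPKM + 1), as the mean of the 3 Cdx2-high minus the mean of the 17 Cdx2-low blastomeres. On this scale a difference of 1 is a doubling of a well expressed gene, and it understates the change of low genes. Genes entered when their mean over the 20 blastomeres was at least 1, which 7595 of the 15342 listed genes met and 7747 (Cdx2 included) did not. No test was made and no p-value is given, because the groups were made from a measured level, the cells of 4 embryos are not replicates of a condition, and 1 group had 3 members. The median difference over all genes was 0.12 and the SD of the differences was 0.78. A difference of at least 1 was found for 913 genes higher in the Cdx2-high blastomeres (12% of the genes compared) and 559 lower (7.36%), 1472 in all (19.4%). Of the 913 genes higher, 79 had a Cdx2-low mean below 1 and passed the filter only through their Cdx2-high values, so that they had to differ (Hsd17b1, Zfp952, Egfl7, Snord22, Slc9a3r1 and Lamb1 among those named below). Of the 559 genes lower, 242 had a Cdx2-high mean below 1 and passed only through their Cdx2-low values. Among them were Plek2, Anxa2, Uck1, Metap1d, Snord72, Vps50, Dguok, Phkg1, Csad, Gucd1, Rock2, Afdn, Tead1, Klf4, Neat1, Fgfr1, Btg4 and Zp2. The shares of 12% and 7.36% are the background for every list below, and for the counts in each list they are the only yardstick used.

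Most of these differences were no larger than the spread between blastomeres of a group. The pooled SD within groups had a median of 1.27 over all genes, which is above the difference that was counted. Of the 913 genes higher, 279 had a difference above their own pooled SD and 7 above 2 times it, and of the 559 lower, 239 and 10. Of the genes higher, 811 were at 0 in at least 1 Cdx2-low blastomere. All 3 Cdx2-high blastomeres lay above the Cdx2-low median in 577 of the genes higher (7.6% of all), and all 3 lay below it in 335 of the genes lower (4.41%). With S48, S51 and S60 left out in turn, 664 of the 1472 genes kept a difference of at least 1 in the same direction each time, 439 higher and 225 lower.

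The values of the groups did not overlap in 5 genes, 3 higher and 2 lower. This count was 32 higher and 10 lower without S48 (of 7587 genes), 28 and 8 without S51 (of 7591) and 48 and 20 without S60 (of 7611). A smaller Cdx2-high group by itself lets more genes pass. These counts therefore cannot show that a particular blastomere matters. The count was 3 to 7 and 2 to 6 without 1 Cdx2-low blastomere. It was none with all 26 columns, where S58 joins the Cdx2-high group and Ddost turns to -0.39. How many genes the group sizes alone would give was not tested. Ddost, a subunit of the oligosaccharyltransferase that attaches N-linked sugars to proteins, was at 90.3, 129 and 79.9 FPKM in S48, S51 and S60, and at 17.5 to 77.3 FPKM with a median of 49.1 in the Cdx2-low blastomeres, a difference of 1.08 (pooled SD 0.55). Lyrm4, which takes part in the making of iron-sulfur clusters in mitochondria, was at 41.8, 33.9 and 75.2 FPKM against 0 to 33.5 FPKM with a median of 12.2, a difference of 2.42 (pooled SD 1.60). Hsd17b1, an enzyme that converts estrone to estradiol, was at 13.9, 27.1 and 40.6 FPKM against 0 to 11.99 FPKM, and 12 of the 17 Cdx2-low blastomeres were at 0. Its difference of 3.92 (pooled SD 1.33) was the largest of all genes compared, and it passed the filter only through the Cdx2-high values. These 3 were higher (0.0395% of the genes compared), and their lowest Cdx2-high value lay just above the highest Cdx2-low one for Lyrm4 and Ddost.

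The other two genes without overlap were lower (0.0263%). Usp37, a deubiquitinase that acts on cell cycle regulators, was at 20.2, 12.3 and 12.6 FPKM in S48, S51 and S60 and at 21.6 to 82.7 FPKM with a median of 30.95 in the Cdx2-low blastomeres, a difference of -1.23 (pooled SD 0.58). Ubap2l, an RNA-binding protein of stress granules, was at 10.6, 9.87 and 11.6 FPKM against 12.1 to 59.5 FPKM with a median of 27.2, a difference of -1.18 (pooled SD 0.60). Both were present in all 20 blastomeres. The spans of Lyrm4, Usp37 and Ubap2l overlap those of other genes, and the library protocol does not mark strand, so reads of such neighbours could not be told apart. The same holds for further genes named below, among them Fabp3, Pard6a, Prkcd and Carm1.

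The 10 largest upward differences, Hsd17b1 included, belonged to genes that were at or near 0 in most Cdx2-low blastomeres and present in all 3 Cdx2-high ones. Calm5, a calmodulin-related gene, was at 13.7, 36.3 and 36.01 FPKM in S48, S51 and S60 and at 0 in 13 of 17 Cdx2-low blastomeres, of which the highest had 120 FPKM. Ankrd54 (difference 3.42), the class I histocompatibility gene H2-Q10 (3.33), Zfp952 (3.17), Cdpf1, C1galt1c1, a chaperone of O-glycan synthesis, A630001G21Rik (2.93), Hsd17b6 (2.91) and Ankrd46 (2.81) had the same form, and each overlapped between the groups.

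The 10 largest downward differences belonged to genes present in most Cdx2-low blastomeres. All of them but Mir763 passed the filter only through their Cdx2-low values, so that they had to differ. Plek2, a pleckstrin family protein of the actin cytoskeleton, was listed at 0 in S48, S51 and S60 and had a median of 19.7 FPKM in the Cdx2-low blastomeres, of which 3 were at 0, a difference of -3.89 (pooled SD 1.84). Anxa2, a membrane-binding annexin, was also listed at 0 in all 3, against a median of 16.1 FPKM and a highest value of 233 FPKM, with 5 Cdx2-low blastomeres at 0. Uck1, a uridine-cytidine kinase, Metap1d, a mitochondrial methionine aminopeptidase, and the small nucleolar RNA Snord72 were likewise at 0 in all 3. Vps50 (-3.14), Mir763 (-2.82), Dguok (-2.79), the mitochondrial deoxyguanosine kinase, Phkg1 (-2.79) and Csad (-2.73) completed the 10. In all, 64 of the 559 genes lower were at 0 in all 3 Cdx2-high blastomeres. Mir763 lies within Hmga2 and Snord72 within Rpl37, and the spans of Uck1, Phkg1 and Csad overlap Pomt1, Sumf2 and Zfp740, so their reads may be shared.

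**Figure D2:**
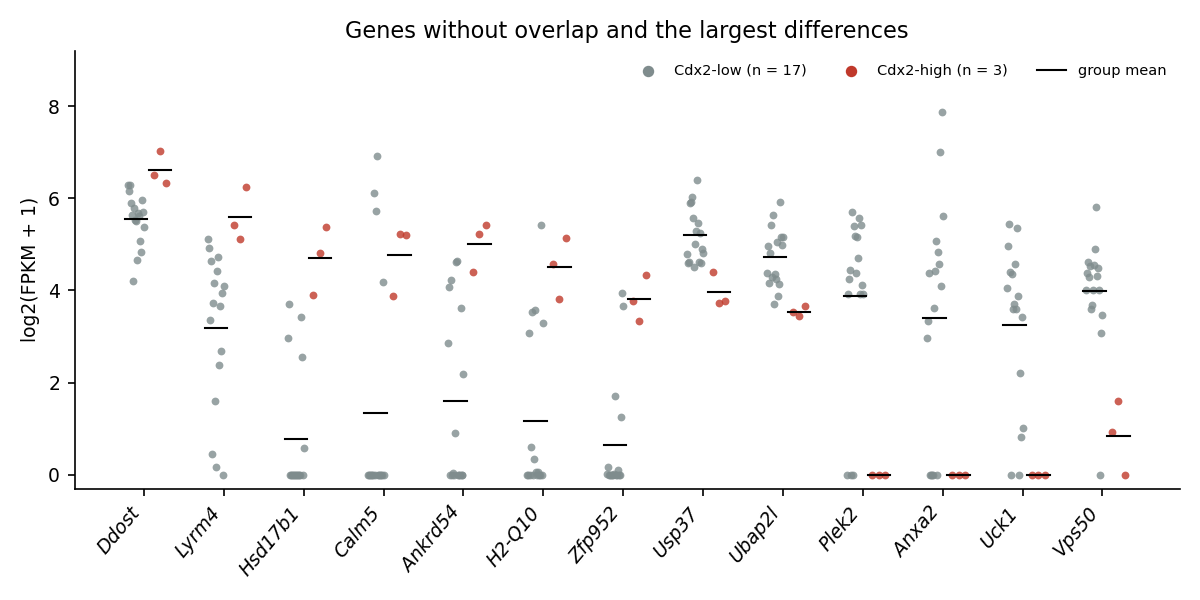
Levels as log2(FPKM + 1) of the 5 genes without overlap between the groups and of further genes with the largest differences, 1 point for each blastomere (grey, 17 Cdx2-low; red, 3 Cdx2-high) with black lines at the group means. Ddost, Usp37 and Ubap2l are present in every blastomere, whereas Hsd17b1, Calm5, Plek2 and Anxa2 fall into blastomeres at 0 and blastomeres well above it.

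The genes whose order over the 20 blastomeres was most like that of Cdx2 were Hsd17b1, Egfl7, Lyrm4, Ddost and Snord22, with rank correlations of 0.69, 0.68, 0.62, 0.61 and 0.60. The most opposite were Ubap2l and Usp37 at -0.61, Mfn1 at -0.60, Norad at -0.59 and Gucd1 at -0.58. With 17 of 20 Cdx2 values tied at 0 these figures restate the split. Snord22 lies within Snhg1, and the spans of Egfl7, Mfn1 and Norad overlap those of other genes, so their reads may be shared too. Mfn1, which fuses the outer membranes of mitochondria, was at 21.2, 22.4 and 22.6 FPKM in the Cdx2-high blastomeres and at 22.5 to 96.6 FPKM in the Cdx2-low ones, so that the groups overlapped by 1 value.

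Of 23 trophectoderm factors on the list, 20 were listed and 12 passed the filter, with a median difference of 0.063 against 0.12 over all genes. A difference of at least 1 was found for 2 higher (16.7%, against 12% of all genes) and for none lower (0%, against 7.36%). Tead4, the Yap1 partner that activates Cdx2, was at 60.7, 43.1 and 92.1 FPKM in S48, S51 and S60 and at 24.7 to 158 FPKM in the Cdx2-low blastomeres, a difference of -0.13 (pooled SD 0.78). Its co-activator Yap1 differed by -0.22 (pooled SD 1.28), at 10.6, 4.35 and 21.1 FPKM against 0.570 to 45.1 FPKM. Tead4 was above 1 FPKM in all 20 blastomeres, and Yap1 was above it in all 3 Cdx2-high and in 16 of 17 Cdx2-low blastomeres.

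Tfap2c and Klf5, which act upstream of Cdx2 in the early embryo, were equally widespread. Tfap2c was at 50.6, 55.3 and 84.8 FPKM in S48, S51 and S60 against a median of 65.3 FPKM, a difference of 0.0065 (pooled SD 0.63). Klf5 was at 61.3, 100 and 265 FPKM against a median of 92.5 FPKM, a difference of 0.042 (pooled SD 0.96). Gata3, the other early trophectoderm factor downstream of Tead4, was at 1.60 FPKM in S48 and at 0 in S51 and S60. It was above 1 FPKM in 9 of 17 Cdx2-low blastomeres, the highest at 27.9 FPKM, a difference of -0.99 (pooled SD 1.48). Cdx2 and Gata3 were thus above 1 FPKM together in S48 alone. Eomes, a later trophectoderm factor, was at 0 in all 3 and below the filter.

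The 2 factors with a difference of at least 1 were Elf3 and Grhl2, regulators of epithelial genes. Elf3 was at 15.1, 38.1 and 174 FPKM in S48, S51 and S60 and at 0 to 112 FPKM with a median of 9.78 in the Cdx2-low blastomeres, of which 5 were at 0, a difference of 2.48 (pooled SD 2.75). S60 was above every Cdx2-low value, and S48 and S51 lay inside the range. Grhl2 was at 50.7, 31.4 and 25.6 FPKM against 0.758 to 56.4 FPKM with a median of 17.8, a difference of 1.26 (pooled SD 1.22), with all 3 above the Cdx2-low median. Fgfr2, the receptor through which FGF4 later acts on the trophectoderm, differed by 0.93.

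Genes of the outer epithelium itself went both ways. Of 26 keratin, tight junction and blastocoel pump genes, 24 were listed and 19 passed the filter, with a median difference of 0.28. 5 were higher by at least 1 (26.3% of 19, against 12% of all genes) and 1 was lower (5.26%, against 7.36%). All 3 Cdx2-high blastomeres lay above the Cdx2-low median in 4 members and below it in 4. Cldn6, a claudin of tight junctions, was at 19.2, 30.5 and 58.2 FPKM in S48, S51 and S60 and at 0 to 179 FPKM with a median of 10.3, with 6 Cdx2-low blastomeres at 0, a difference of 2.19 (pooled SD 2.52). Ocln, the tight junction protein occludin, was at 35.8, 50.01 and 21.7 FPKM against 0 to 135 FPKM with a median of 13.4, a difference of 1.78 (pooled SD 2.05). In both genes all 3 Cdx2-high blastomeres lay above the Cdx2-low median and none lay above the highest Cdx2-low value.

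Lgals3 (galectin-3, 1.47) and Fabp3 (a fatty acid carrier, 1.43) were also higher by at least 1. The scaffold Tjp1 (ZO-1) was the member lower by at least 1, at 4.68, 3.86 and 0.00889 FPKM in S48, S51 and S60 against a median of 8.31 FPKM, a difference of -1.32 (pooled SD 1.26). Krt8 and Krt18, the keratin pair of simple epithelia, differed less between the groups than among blastomeres of a group. Krt8 was at 10.9, 29.7 and 209 FPKM against 0.0282 to 156 FPKM with a median of 46.4, a difference of 0.80 (pooled SD 2.43). Krt18 was at 7.31, 18.6 and 101 FPKM against 0 to 233 FPKM with a median of 29.4, a difference of 0.22 (pooled SD 2.59). S60 had the highest level of both keratins among the 3 and lay above every Cdx2-low blastomere for Krt8.

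**Figure D3:**
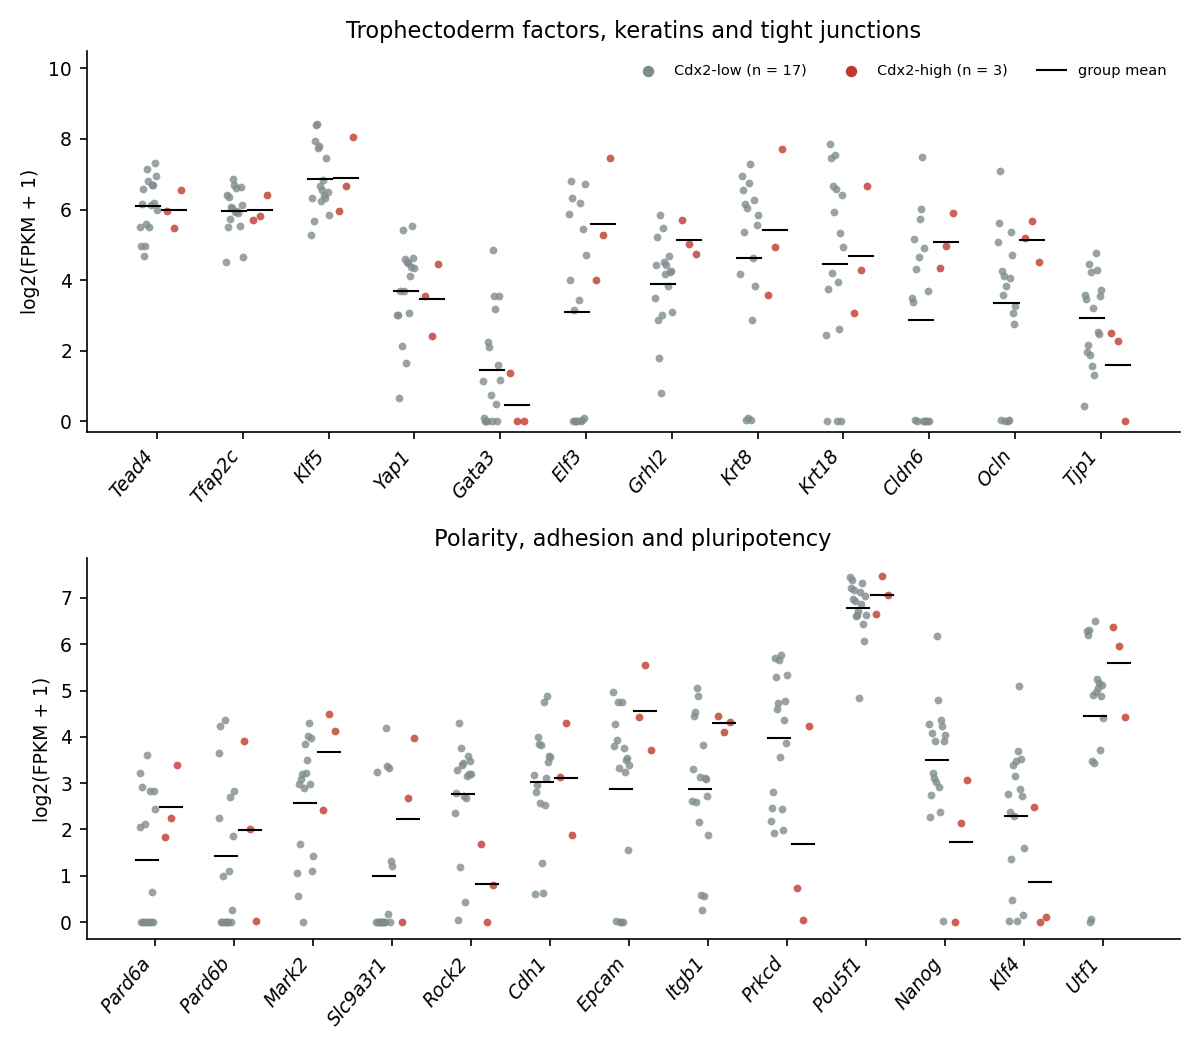
Levels as log2(FPKM + 1) of trophectoderm factors, keratins and tight junction genes (upper panel) and of polarity, adhesion and pluripotency genes (lower panel), 1 point for each blastomere (grey, 17 Cdx2-low; red, 3 Cdx2-high), with black lines at the group means. Tead4, Tfap2c, Klf5 and Pou5f1 have near equal means, Rock2, Prkcd, Nanog and Klf4 have lower means in the Cdx2-high blastomeres, and the groups overlap in every gene drawn.

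Polarity genes differed about as often as all genes did. Of 30 on the list, 29 were listed and 20 passed the filter, with a median difference of 0.28. 3 were higher by at least 1 (15%, against 12% of all genes) and 1 was lower (5%, against 7.36%). Each of the 3 higher fell below 1 without 1 Cdx2-high blastomere, Pard6a to 0.71 and Slc9a3r1 to 0.35 without S60, and Mark2 to 0.70 without S51, and Slc9a3r1 passed the filter only through the Cdx2-high values. Pard6a, a subunit of the apical Par complex, was at 2.58, 3.74 and 9.52 FPKM in S48, S51 and S60 and at 0 to 11.1 FPKM with a median of 0.574 in the Cdx2-low blastomeres, a difference of 1.16 (pooled SD 1.38). Pard6b, the form of this subunit that is required for the trophectoderm, was at 13.97, 3.05 and 0.0188 FPKM against 0 to 19.7 FPKM, a difference of 0.56 (pooled SD 1.66) that turned to -0.41 without S48. The Par complex kinase Prkci and the apical linker Ezr were below the filter. Prkci was at 0, 1.36 and 0 FPKM and Ezr at 3.44, 0 and 0 FPKM in S48, S51 and S60, so that S48 had Pard6b and Ezr without Prkci, and S60 had none of the 3 above 1 FPKM.

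Slc9a3r1 (EBP50), which links membrane proteins to ezrin, was at 0 in S48, 5.37 FPKM in S51 and 14.8 FPKM in S60 and was at 0 in 10 of 17 Cdx2-low blastomeres, a difference of 1.23 (pooled SD 1.59). Mark2, the basolateral kinase Par-1, was at 4.34, 21.5 and 16.6 FPKM against a median of 6.95 FPKM, a difference of 1.10. Rock2, a kinase that drives actomyosin contraction, was the member lower by at least 1. It was at 2.20, 0 and 0.743 FPKM in the Cdx2-high blastomeres and at 0.0293 to 18.7 FPKM with a median of 8.13 in the Cdx2-low ones, a difference of -1.94 (pooled SD 1.13). Its paralogue Rock1 differed by -0.040, at 6.51, 4.81 and 23.98 FPKM, and Cdc42, the GTPase that activates the Par complex, by -0.0050.

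Adhesion and compaction genes went both ways. Of 25 on the list, 24 were listed and 17 passed the filter, with a median difference of 0.021, 3 higher by at least 1 (17.6%, against 12%) and 2 lower (11.8%, against 7.36%). E-cadherin (Cdh1), the adhesion protein of compaction, was at 7.76, 18.7 and 2.70 FPKM against a median of 8.05 FPKM, a difference of 0.070 (pooled SD 1.24). Epcam was at 20.4, 46.1 and 12.2 FPKM in S48, S51 and S60 against 0 to 30.2 FPKM with a median of 10.3, a difference of 1.69 (pooled SD 1.73). Itgb1, the beta-1 integrin subunit, was at 20.8, 16.1 and 19.1 FPKM against a median of 7.53 FPKM, a difference of 1.42 (pooled SD 1.38). For both genes, and for the gamma-actin gene Actg1 (1.16), all 3 lay above the Cdx2-low median.

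Prkcd, a protein kinase C, was at 0.674 FPKM in S48, 0.0395 FPKM in S51 and 17.9 FPKM in S60, and at 2.78 to 53.3 FPKM with a median of 19.7 in the Cdx2-low blastomeres. S48 and S51 were thus below every Cdx2-low value, whereas S60 was near the Cdx2-low median. The difference was -2.29 (pooled SD 1.53). Afdn (afadin), which ties nectins to actin, was at 0.911, 2.67 and 0.121 FPKM against a median of 5.29 FPKM, a difference of -1.45 (pooled SD 1.16).

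Among the Hippo pathway genes, 13 of 26 listed passed the filter, with a median difference of -0.098. 1 was higher by at least 1 (7.69%, against 12%) and 2 were lower (15.4%, against 7.36%). Lats2, the kinase that phosphorylates Yap1, was at 5.43, 3.70 and 10.2 FPKM against a median of 6.52 FPKM, a difference of 0.62 (pooled SD 1.41). Mob1b, which activates Lats kinases, was at 9.58, 20.3 and 1.21 FPKM against a median of 1.91 FPKM, a difference of 1.26 (pooled SD 1.56). Tead1, a relative of Tead4, was at 0.628, 0.142 and 0 FPKM against 0.0674 to 8.58 FPKM with a median of 2.73, a difference of -1.41 (pooled SD 0.96). Vgll4, which competes with Yap1 for Tead proteins, was at 0, 9.57 and 12.7 FPKM against a median of 23.2 FPKM, a difference of -1.28 that became -0.087 without S48. Amotl2, a relative of Amot, was at 0.0135, 21.05 and 55.7 FPKM against a median of 8.68 FPKM, a difference of 0.77 (pooled SD 2.18) that was 2.48 without S48 and -0.42 without S60. Amot, the scaffold that activates Lats in inner cells, was below the filter, at 0.0292 FPKM in S48 and 0 in S51 and S60, and was above 1 FPKM in 8 of 17 Cdx2-low blastomeres.

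Pluripotency genes went both ways. Of 31, 27 were listed and 23 passed the filter, with a median difference of -0.059, 2 higher by at least 1 (8.7%, against 12%) and 2 lower (8.7%, against 7.36%). Pou5f1 (Oct4), which is needed for the inner cell mass, was at 99.3, 178 and 132 FPKM in S48, S51 and S60 against 27.8 to 175 FPKM with a median of 122, a difference of 0.27 (pooled SD 0.60). Sox2 was not listed at this stage. Nanog, the homeodomain factor of the epiblast, was at 0, 3.41 and 7.43 FPKM against 0.0153 to 71.8 FPKM with a median of 13.95, a difference of -1.76 (pooled SD 1.35). All 3 Cdx2-high blastomeres were below the Cdx2-low median of Nanog, and 16 of 17 Cdx2-low blastomeres were above 1 FPKM.

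Klf4 was at 4.59, 0 and 0.0839 FPKM against 0.0209 to 33.03 FPKM with a median of 5.62, a difference of -1.43 (pooled SD 1.47). Utf1, a chromatin protein of pluripotent cells, was higher by 1.13, at 82.2, 60.9 and 20.6 FPKM against a median of 30.5 FPKM. Zfp57, which protects imprinted methylation, was higher by 1.12, at 7.71, 4.04 and 17.95 FPKM against a median of 5.45 FPKM, so that S51 lay below that median. The abundant Dppa2, Dppa3, Dppa4 and Fbxo15 differed by -0.062, -0.10, 0.0074 and -0.059, with pooled SDs of 0.17 to 0.27.

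**Figure D4:**
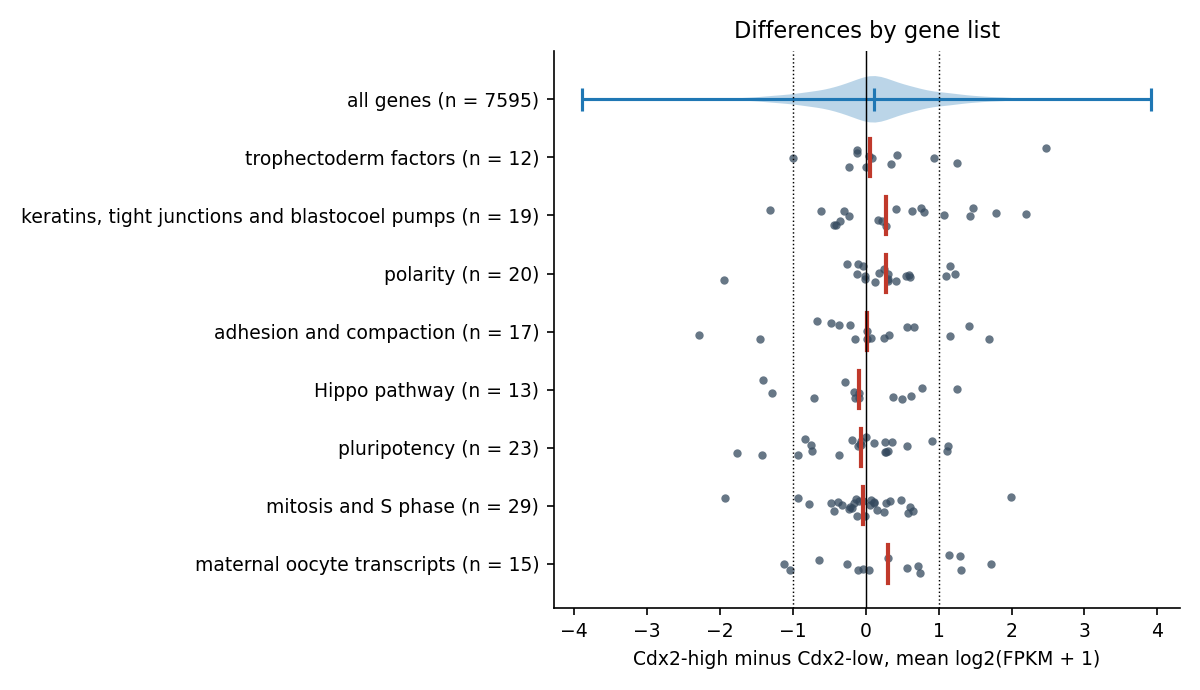
Cdx2-high minus Cdx2-low difference of mean log2(FPKM + 1), 1 point for each member that passed the filter, by gene list, with red bars at the list medians; the violin shows all 7595 genes, its ticks the lowest, median and highest difference, and dotted lines mark differences of -1 and 1. The medians of the lists drawn lie between -0.098 and 0.31, beside 0.12 over all genes, and every list drawn has members on both sides of 0.

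Regulators linked to early differences between blastomeres were mixed. Carm1, the arginine methyltransferase of histone H3, was at 0 in S48, 8.74 FPKM in S51 and 12.05 FPKM in S60 against 0 to 8.72 FPKM, a difference of 1.06 (pooled SD 1.45). S51 and S60 were thus above all Cdx2-low values of Carm1, while S48 was at 0. Sox21 was at 5.46, 0.258 and 9.44 FPKM against a median of 1.23 FPKM, a difference of 0.88 (pooled SD 1.42). This difference was 0.25 without S60 and 1.78 without S51. The paraspeckle RNA Neat1 was at 0.0177, 0 and 0 FPKM and above 1 FPKM in 8 of 17 Cdx2-low blastomeres, a difference of -1.41 (pooled SD 1.43).

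Primitive endoderm genes numbered 6 after the filter, 1 higher (16.7%, against 12%) and 2 lower (33.3%, against 7.36%), with a median difference of -0.51. Lamb1 passed the filter only through its Cdx2-high values and Fgfr1 only through its Cdx2-low values. Lamb1, a laminin chain, was at 2.95, 6.41 and 9.59 FPKM against a median of 0.5001 FPKM, a difference of 1.82. Gata4 was at 0 in S48 and S51 and at 40.3 FPKM in S60, against a median of 7.91 FPKM, and Fgfr1 was at 1.15, 0.468 and 0 FPKM against a median of 3.68 FPKM.

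Cell cycle genes had the lowest share of differences among the lists with more than 10 members compared. Of 30, 29 passed the filter, with a median difference of -0.040, 1 higher and 1 lower (3.45% each). Aurkb, the kinase of the chromosomal passenger complex, was at 32.8, 70.4 and 78.4 FPKM in S48, S51 and S60 against 0 to 60.8 FPKM with a median of 22.05, a difference of 1.99 (pooled SD 1.94). Mki67, a coat protein of mitotic chromosomes, was at 0.778, 0.428 and 3.13 FPKM against 2.12 to 16.5 FPKM with a median of 8.11, a difference of -1.93 (pooled SD 0.77), and S60 alone overlapped the Cdx2-low range. Ccnb1 and Ccna2, the mitotic cyclins, differed by 0.11 and 0.25.

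Of 15 maternal oocyte transcripts that passed the filter, 4 were higher by at least 1 (26.7%, against 12%) and 2 were lower (13.3%, against 7.36%), with a median difference of 0.31 that turned to -0.16 without S48 and rose to 0.75 without S51. Tle6 and Khdc3, of the subcortical maternal complex, were higher by 1.72 and 1.14, Zp1, of the zona pellucida, by 1.31 and Nlrp14 by 1.29. Khdc3 fell to 0.83 without the Cdx2-low S61. It differed by -0.12 where Eif2s3y was detected and by 3.02 where it was at 0. The mRNA decay factor Btg4 (-1.13) and Zp2 (-1.03) were the 2 lower, and both passed the filter only through their Cdx2-low values, so that they had to differ. Of 7 genes of the burst at the 2-cell stage, Tdpoz2 was higher by 1.90 and Tdpoz4 lower by 1.14 (14.3% each, against 12% and 7.36%). Both belong to a gene family in which only uniquely aligned reads were counted. Tdpoz4 turned to 0.54 without S60 and to 0.18 with group medians. It differed by 0.59 where Eif2s3y was detected and by -4.57 where it was at 0. The MERVL retrovirus that accompanies the 2-cell burst had 630 to 892 copies with reads in the Cdx2-high blastomeres and 353 to 1264 in the Cdx2-low ones. None of 9 stress and p53 response genes differed by 1 or more, and their median of 0.33 turned to -0.14 without S48.

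S48, S51 and S60 did not contribute alike. Of the 913 genes higher, S60 was the highest of the 3 in 397, S48 in 275 and S51 in 241. S60 had the highest level of Elf3 and of both keratins among the 3. Without S60 the difference fell to 1.54 for Elf3 and turned to -0.36 for Krt8 and -0.78 for Krt18. The median of the trophectoderm factors was 0.063 with all 3, 0.35 without S48, 0.22 without S51 and -0.25 without S60. Cldn6 stayed between 1.78 and 2.56, Ocln between 1.51 and 2.09, and Rock2 between -2.36 and -1.52, whichever of the 3 was left out. With all 26 columns, S58 included, Rock2 became -0.78, whereas Cldn6 was 1.54 and Ocln 1.76. Other named differences fell below 1 in size without 1 of S48, S51 and S60. Without S60 they became 0.73 for Fabp3, 0.61 for Zfp57, 0.37 for Carm1, 0.38 for Zp1, -0.84 for Fgfr1 and -0.53 for Tjp1. Without S51 they became 0.54 for Mob1b, 0.86 for Actg1, 0.88 for Ddost and -0.996 for Klf4. Without S48 they became -0.89 for Nanog, 0.74 for Utf1, 0.92 for Nlrp14, 0.99 for Grhl2, -0.27 for Gata4, -0.90 for Btg4 and -0.96 for Zp2.

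The comparison was repeated within blastomeres of like sex, a choice made after the data were seen. Where Eif2s3y was detected, 2 Cdx2-high stood against 10 Cdx2-low blastomeres, and where it was at 0, S60 stood alone against 7. A difference of at least 1 in the same direction in both sexes was found for 363 genes higher (4.78% of the genes compared) and 183 lower (2.41%). Cldn6 (2.59 where Eif2s3y was detected, 1.85 where it was not), Ocln (1.34 and 2.24), Grhl2 (1.17 and 1.26), Itgb1 (1.69 and 1.05), Epcam (1.78 and 1.32), Rock2 (-1.97 and -1.89), Klf4 (-1.24 and -1.91), Hsd17b1 (3.03 and 5.38) and Plek2 (-4.10 and -3.59) were among them.

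Other differences had unlike values in the 2 sexes, which was not tested. Elf3 differed by 0.66 where Eif2s3y was detected and by 5.61 where it was not, Krt8 by -0.41 and 3.18, Fabp3 by -0.92 and 5.17, Lgals3 by -0.053 and 3.80, and Slc9a3r1 by -0.35 and 3.98. Prkcd differed by -3.20 and -0.26 and Gata4 by -2.30 and 1.48. Nanog was lower in both, by -2.05 and -0.97. The median of the keratin, tight junction and pump genes was -0.053 in the first and 1.05 in the second comparison, and that of the polarity genes -0.015 and 0.44. Sex, embryo and single blastomere cannot be told apart in these values, since the second comparison rests on S60.

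**Figure D5:**
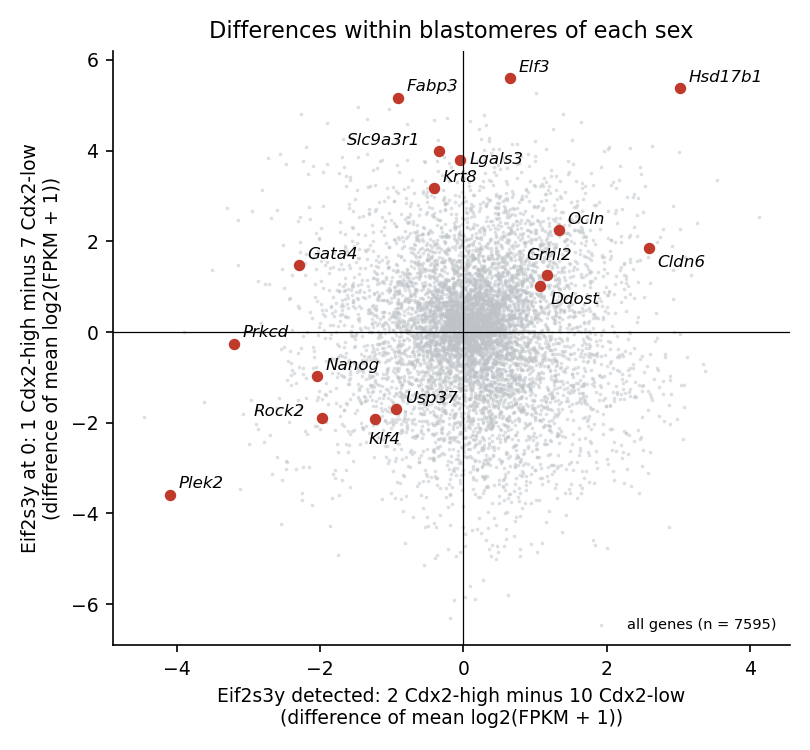
Difference of mean log2(FPKM + 1) between Cdx2-high and Cdx2-low blastomeres among those with Eif2s3y detected (horizontal axis, 2 against 10) and among those with Eif2s3y at 0 (vertical axis, S60 against 7), 1 point for each of 7595 genes. Cldn6, Ocln, Grhl2, Ddost and Hsd17b1 lie at 1 or more on both axes and Plek2, Rock2 and Klf4 at -1 or less on both, while Elf3, Krt8, Fabp3 and Lgals3 lie high on the vertical axis only.

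The 6 blastomeres with fewer genes, which the split did not use, held 1 more cell with Cdx2. S58 was at 48.2 FPKM and the other 5 were at 0, all 6 with Eif2s3y at 0 and Xist at 2.59 FPKM or more. S58 had 4263 genes above 1 FPKM, and the other 5 had 3548 to 5391. S58 was compared with these 5 on the same scale, with no spread available on its side. S57, 1 of these 5, had an estimated total of only 2.34 M fragments, against 12.6 M in S58 and 15.3 M to 18.6 M in the rest. Its count of 0 for Cdx2 allowed a level of up to 0.599 FPKM. Of all genes compared, 311 were at 0 in all 6 and gave no contrast, 75 of them among the genes higher in the Cdx2-high blastomeres and 38 among the genes lower. Of the remaining genes higher, 32.6% were also higher in S58, and of the remaining genes lower, 35.9% were higher in S58, beside 40% of all remaining genes.

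Of the 63 genes named by rule with a difference of at least 1, S58 differed from the mean of the 5 in the same direction in 24, in the opposite direction in 36 and not at all in 3. The direction was the same for Elf3 (3.19), Ocln (1.89), Fabp3 (1.89), Aurkb (3.93), Lamb1 (4.45), Utf1 (2.14), Zfp57 (1.60), Prkcd (-2.54), Vps50 (-3.20) and Dguok (-3.97). It was opposite for Grhl2 (-3.04), Epcam (-1.77), Itgb1 (-2.18), Lgals3 (-3.11), Rock2 (2.70), Nanog (2.97), Plek2 (4.07), Anxa2 (6.71) and Ddost (-4.72). Krt8 was higher in S58 by 3.85, whereas its partner Krt18 was at 0 there, a difference of -4.95. Pard6a and Mark2 were at 0 in S58. Slc9a3r1 and Hsd17b1 were at 0 in all 6 and gave no contrast, and Cldn6 was at 0 in S58 and in 4 of the other 5, a difference of -0.18. Nanog was at 34.97 FPKM in S58, above all 3 Cdx2-high blastomeres. Low gene number and Cdx2 occurred together in S58, and the part of gene number in these values was not tested.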

How the data were processed

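Single blastomeres were amplified by Smart-seq2, made into Nextera XT libraries and sequenced as paired reads. The authors aligned reads with STAR 2.5.1b to mm10, kept uniquely aligned reads and counted RefSeq genes and repeats with HTSeq. The deposited gene tables hold FPKM values, and neither gene lengths nor column totals are in those tables. The deposited repeat table holds a signal per repeat copy in an unstated unit, and only copies above 0 were counted. Entrez identifiers were named through the RefSeq table of GRCm38.p6 (15320 of 15342 matched). Columns were not assigned to samples, because their names do not match the labels, so no embryo term could be fitted. Replicates from separate cultures or animals are not defined for these cells.

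The total behind each column was estimated from FPKM values that 1 fragment would give (8590 genes with 1 curated transcript). With it, 91.1 to 95.8% of low values (0.5 to 10 fragments) were whole within 0.1 in the 20 blastomeres compared. In the 6 gene-poor blastomeres 94.3 to 96.4% were. Values were set on log2(FPKM + 1), filtered at a mean of 1 and averaged by group in Python 3.11.15 with pandas 2.3.3 and numpy 2.4.6. The steps were checked on simulated data. The Cdx2 split and the gene lists were chosen with earlier results of these data known. Named genes are Cdx2, the 4 largest differences of each main list, 20 genes always named, the 10 largest differences in each direction and the 5 highest and 5 lowest correlations. From other lists up to 4 examples were taken. Tjp1, Actg1, the non-overlapping genes, Btg4, Zp2, Rock1, Cdc42, Ccnb1, Ccna2 and the abundant pluripotency genes were named after their values were seen. 1 further member of the keratin, tight junction and pump list is not reported here. Alternatives changed the pseudocount (0.1), the filter (none, or 3), group medians, the gene minimum (6000, or all 26 columns), the NA columns, the scaling, gene number or Y-linked expression as a second term, sex, and single blastomeres.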

Additional observations from a re-analysis of the deposited data

Results flagged for a closer look

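Cdx2 was above 0 in 1 blastomere outside the comparison. S58, which had too few genes to enter it, was at 48.2 FPKM, an estimated 1299 fragments, above the 3 Cdx2-high blastomeres, while the other 5 gene-poor blastomeres were at 0.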

How the results depend on the processing

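No paired analysis was possible because blastomeres in the gene table carry neither a named embryo nor a replicate number. The embryo block was not run for that reason, and a contrast of the top and bottom blastomeres by Cdx2 was not run because 17 of them tie at 0. Runs of columns resemble the order in which the paper lists its lineage-resolved 8-cell blastomeres. By that order S48 and S51 may share an embryo with S49 and S50, and the gene-poor blastomeres may share another. No column was assigned by order, and this was not tested. With a pseudocount of 0.1 in place of 1, 1648 genes were higher and 1005 lower, and with a filter of 3 in place of 1, 311 and 197. The number of genes without overlap was less stable: 6 higher without a filter, 6 lower with at least 6000 genes (3 against 16 blastomeres), 11 higher and 8 lower without the NA columns (3 against 12), and 0 and 0 with all 26 columns (4 against 22, S58 included), where Ddost turned to -0.39. Group size by itself also changes this number. With all 26 columns the genes higher no longer outnumbered the genes lower. Further named differences then fell below 1 in size, as Rock2 did. Among them were Lyrm4 (0.66), Grhl2 (0.16), Epcam (0.80), Itgb1 (0.51), Lgals3 (0.34) and Nanog (-0.61). Others stayed above 1 in size, among them Elf3 (2.64), Aurkb (2.44) and Dguok (-3.08). Group medians turned Tdpoz4 to 0.18. Scaling by median ratios and both second terms moved no count by over 1.5 times and turned no named gene counted as higher or lower. The median of all genes shifted by over 0.1 only without a filter (by -0.12). With gene number as a second term this median was 0.050, against 0.12 in the main comparison.

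With blastomeres left out in turn, genes higher numbered 874 to 1262 (most without S60) and genes lower 533 to 967 (most without S48, 920 without S51). Genes without overlap numbered 3 to 48 higher and 2 to 20 lower, most without S60, and a smaller Cdx2-high group by itself lets more genes pass. List medians ran from -0.25 to 0.51 for trophectoderm factors, 0.21 to 0.44 for keratins, tight junctions and pumps, 0.093 to 0.31 for polarity, -0.057 to 0.16 for adhesion, -0.29 to 0.019 for Hippo and -0.074 to -0.018 for pluripotency. Genes were filtered anew in each of these runs. The trophectoderm median without S48 was thus 0.51 here and 0.35 over the genes of the main comparison. Tdpoz4 lay between -1.999 and 0.54, the latter without S60.

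Sex alternatives were added after the data were seen, and each tested fewer blastomeres and filtered genes anew. With Eif2s3y detected, 120 genes were higher and 63 lower without overlap, and Lgals3 (-0.053), Fabp3 (-0.92), Slc9a3r1 (-0.35), Khdc3 (-0.12) and Tdpoz4 (0.59) turned. With Eif2s3y at 0, where S60 stands alone, 1734 genes were higher and 1810 lower, 1028 and 656 without overlap, the medians of trophectoderm factors and of keratins, tight junctions and pumps became 0.89 and 0.97, and Mob1b (-0.80), Gata4 (1.48) and Nlrp14 (-0.086) turned. The cause of these shifts was not tested.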
